A study of Mus musculus with 6 samples.

Results

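The 10 genes described here mark the dendritic cell (DC) subsets of the mouse lung. They were taken by symbol from the 56262 genes of the count table, and all 10 were found. Xcr1, Clec9a, Batf3 and Itgae stand for type 1 conventional DCs (cDC1), Cd209a and Irf4 for type 2 conventional DCs (cDC2), and Siglech for plasmacytoid DCs (pDC). Irf8 is shared by cDC1 and pDC, Zbtb46 by cDC1 and cDC2, and Flt3 by all of them. Whole-lung RNA was sequenced from 3 R/R mice and 3 WT littermates at 8 weeks of age, without treatment. R/R mice are homozygous for the RBM47 K329R;K332R knock-in, made by CRISPR/Cas editing on the C57BL/6 background, and WT mice carry neither substitution. The substitutions are present in all cells, so a difference in DC genes cannot be assigned to the DCs themselves. The 3 samples of a group were described as biological replicates, and p-values weigh the difference between groups against the spread between these samples. In whole-lung RNA, fewer cells of a type and less RNA per cell cannot be told apart.

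DCs take up antigen in the tissue, carry it to lymph nodes and present it to T cells. Their development depends on the cytokine receptor FLT3. IRF8 and BATF3 direct the cDC1 lineage, which cross-presents antigen to CD8+ T cells, IRF4 acts in cDC2, which favor CD4+ T cell responses, and pDCs are known for making large amounts of type I IFN. In the lung, cDC1 are recognized by the integrin CD103, encoded by Itgae, by the chemokine receptor XCR1 and by CLEC9A, a receptor for dead-cell debris.

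Promoter windows from RefSeq (GRCm38.p6), running from 250 bases before the annotated start to 50 bases after it, were found for 9 of the 10 genes, all but Itgae. Those of Cd209a (chr8:3748935-3749234, minus strand), Irf4 (chr13:30748983-30749282, plus strand) and Irf8 (chr8:120736108-120736407, plus strand; the first of its 2 listed starts) are shown, because Cd209a and Irf4 had the lowest log2 fold changes of the 10 and Irf8 is the factor of the IRF family that acts in the other lineages. Capitals mark the letters TATAAA, the ETS-IRF composite motif (GGAA and GAAA with any 2 bases between), the interferon response core (GAAA and GAAA with any 2 bases between) and the AP-1 motif TGANTCA on either strand. Matches to the ETS-IRF motif and the interferon response core can overlap each other. The E-box CANNTG was also searched and is not marked, since 72.3% of all windows held it.
Cd209a: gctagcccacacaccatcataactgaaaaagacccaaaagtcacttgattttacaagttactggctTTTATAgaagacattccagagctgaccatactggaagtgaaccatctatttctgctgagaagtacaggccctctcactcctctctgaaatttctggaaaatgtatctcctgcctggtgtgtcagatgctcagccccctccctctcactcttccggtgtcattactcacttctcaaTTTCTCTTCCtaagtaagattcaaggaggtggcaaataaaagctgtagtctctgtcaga
Irf4: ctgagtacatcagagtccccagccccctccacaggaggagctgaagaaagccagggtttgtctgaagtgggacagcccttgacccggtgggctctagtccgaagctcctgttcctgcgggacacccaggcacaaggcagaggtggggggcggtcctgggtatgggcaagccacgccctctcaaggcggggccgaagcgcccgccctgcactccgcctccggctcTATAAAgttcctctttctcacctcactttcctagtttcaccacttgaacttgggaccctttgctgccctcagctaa
Irf8: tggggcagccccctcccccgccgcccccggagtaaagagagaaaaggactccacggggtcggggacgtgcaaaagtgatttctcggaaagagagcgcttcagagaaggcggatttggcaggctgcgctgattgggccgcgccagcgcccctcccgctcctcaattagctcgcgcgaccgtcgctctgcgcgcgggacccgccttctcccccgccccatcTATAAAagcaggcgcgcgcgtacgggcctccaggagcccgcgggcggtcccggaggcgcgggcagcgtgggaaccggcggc
The Cd209a window held the ETS-IRF letters on the opposite strand, starting 9 bases before the annotated start. Of 32851 promoter windows, 2.72% held a match to this motif, and no other of the 9 genes had one. The interferon response core, found in 3.44% of windows, was in none of the 9. Irf4 and Irf8 had TATAAA starting 26 and 31 bases before their starts, letters found on either strand in 13.6% of windows, those of Cd209a, Xcr1 and Clec9a included. The AP-1 letters were found in the window of Zbtb46 among the 9 genes, and in 7.81% of all windows. A match is a description of these letters and was not tested as a binding site.

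Between 16501092 and 18141067 counted read pairs made up each library. Of all genes, 17120 had enough counts to be tested, among them all 10 DC subset genes, whose counts in single lungs ranged from 27 to 1252. Levels are given as CPM, the counts scaled to library size with edgeR's TMM factors, and, where genes are compared with each other, as RPKM, the CPM per kilobase of exon. In the whole table, edgeR's quasi-likelihood test called 300 genes between R/R and WT lungs (adjusted p of 0.05), 111 higher and 189 lower in R/R. The defining markers of lung were present, with Sftpc of alveolar type 2 cells between 10010 and 13790 CPM and Pecam1 of endothelium between 875 and 1029 CPM. Neutrophil markers set 2 libraries apart, since the summed level of 6 genes was 195 and 184 CPM in WT replicates 1 and 3 and between 65.9 and 95.7 CPM in the other 4 lungs.

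None of the 10 DC subset genes passed the test between R/R and WT lungs. At an adjusted p of 0.05 the number called was 0 of 10, against 1.75% of all tested genes, and 1 of 10 passed an unadjusted p of 0.05, against 14.2% of all tested genes (edgeR). DESeq2, edgeR's exact test and limma-voom also called 0 of 10, as did the fits that left out WT replicate 1 or WT replicate 3. In none of the 10 genes did the R/R and WT lungs separate without overlap, which 18.7% of tested genes did (9.17% with R/R above and 9.50% with R/R below). The fold changes lay between 0.749 and 1.21 (R/R over WT), with 4 genes above 1 and 6 below it, and their median log2 fold change was -0.04, where the median of all tested genes was 0.0045.

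Per exon length, the genes spanned a wide range of levels. Clec9a was the highest at 15.8 ± 1.26 RPKM (SD over all 6 lungs), followed by Irf8 at 9.80 ± 0.692, Zbtb46 at 6.62 ± 0.549 and Cd209a at 5.10 ± 0.927 RPKM. The ranges of the 6 lungs did not overlap between neighbors in this order from Clec9a down to Irf4. Irf4 followed at 2.09 ± 0.487 RPKM, then Itgae at 1.56 ± 0.197, Batf3 at 1.21 ± 0.223, Siglech at 1.12 ± 0.198, Flt3 at 0.910 ± 0.162 and Xcr1 at 0.590 ± 0.0798 RPKM. From Irf4 downward each gene overlapped the next in its range over the lungs.

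**Figure D1:**
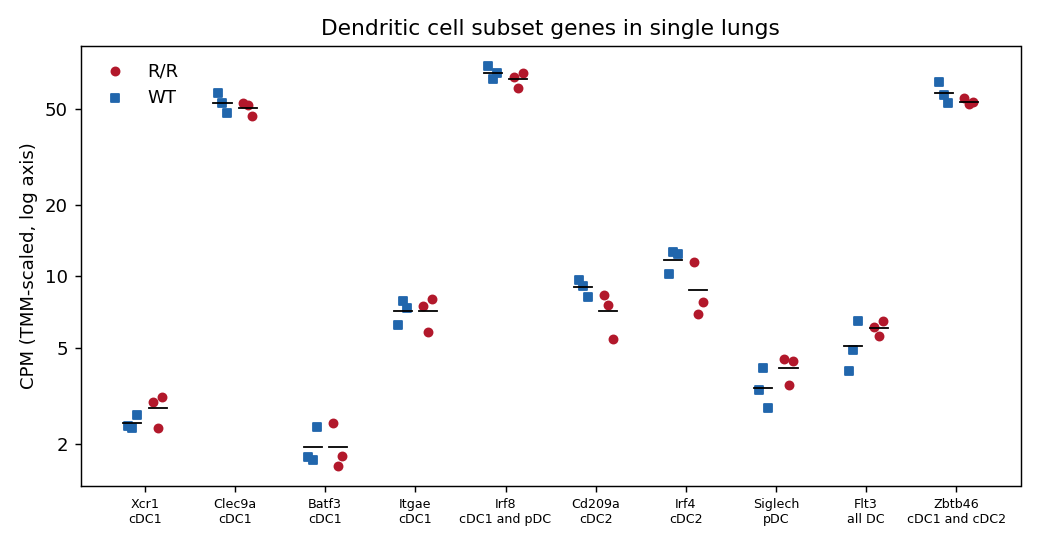
CPM (TMM-scaled, log axis) of the 10 DC subset genes in single lungs, with circles for R/R, squares for WT and a line at the mean of 3 lungs. R/R and WT lungs overlap in every gene, and on the log axis the largest gaps between the means are those of Irf4 and Cd209a.

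Among the cDC1 genes, Xcr1 (ENSMUSG00000060509.5, minus strand of chromosome 9, bases 123852315 to 123862029), the receptor for the chemokine XCL1, measured 2.997, 2.33 and 3.12 CPM in the R/R lungs against 2.37, 2.32 and 2.63 CPM in the WT lungs (values are in the order of replicates 1, 2 and 3 here and for the other genes). R/R replicates 1 and 3 were above all WT lungs and R/R replicate 2 was within their range. The log2 fold change was 0.21 ± 0.22 (SE; adjusted p = 0.749 by edgeR), with a 95% interval for the fold of 0.823 to 1.62. Clec9a (ENSMUSG00000046080.17, plus strand of chromosome 6, bases 129408862 to 129424763) measured 53.1, 52.4 and 46.9 CPM in the R/R lungs against 58.7, 53.0 and 48.4 CPM in the WT lungs. The spread within each genotype was larger than the difference between them, and the log2 fold change was -0.07 ± 0.08 (SE; adjusted p = 0.767, fold interval 0.840 to 1.08 by edgeR). Clec9a and Xcr1 are both used to define cDC1, yet per exon length Clec9a was 26.8 times as high as Xcr1 (between 20.3 and 33.5 times in single lungs). Over the 6 lungs, Pearson's r of log2 CPM of Clec9a was -0.60 with Xcr1, -0.57 with Itgae and -0.21 with Batf3. Xcr1, Itgae and Batf3 had r between 0.38 and 0.61 with each other. The r of Clec9a was 0.83 with Zbtb46, 0.80 with Cd209a and -0.895 with Flt3. With 6 lungs these values are a description, and what sets the level of Clec9a was not tested. Of the 3293 exon bases of Clec9a, 184 are shared with Clec1b on the same strand, and read pairs falling on both were not counted.

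Batf3 (ENSMUSG00000026630.9, plus strand of chromosome 1, bases 191097847 to 191108945), an AP-1 family transcription factor required by cDC1, measured 2.44, 1.61 and 1.77 CPM in the R/R lungs against 1.76, 1.71 and 2.34 CPM in the WT lungs. The means were 1.94 CPM in both genotypes, and the log2 fold change was 0.01 ± 0.27 (SE; adjusted p = 0.997 by edgeR), with a fold interval of 0.664 to 1.52. Itgae (ENSMUSG00000005947.11, plus strand of chromosome 11, bases 73090583 to 73147446) measured 7.55, 5.86 and 8.07 CPM in the R/R lungs against 6.26, 7.89 and 7.38 CPM in the WT lungs. Its means of 7.16 and 7.17 CPM differed by less than the spread between lungs, with a fold interval of 0.776 to 1.28 (adjusted p = 0.997, edgeR). CD103 is also carried by tissue-resident T cells, and all 9 T cell markers had negative log2 fold changes, with 0 called.

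Irf8 (ENSMUSG00000041515.10, plus strand of chromosome 8, bases 120736358 to 120756694), a transcription factor of cDC1, pDCs, monocytes and B cells, measured 68.7, 61.5 and 70.7 CPM in the R/R lungs against 76.0, 66.8 and 71.2 CPM in the WT lungs. The 2 genotypes overlapped, and the log2 fold change was -0.09 ± 0.07 (SE; adjusted p = 0.644 by edgeR). Its fold interval of 0.841 to 1.05 was the narrowest on the log2 scale among the 10 genes.

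The cDC2 genes had the lowest fold changes of the 10, and neither passed the adjusted threshold. Irf4 (ENSMUSG00000021356.10, plus strand of chromosome 13, bases 30749226 to 30766976), which also acts in activated B and T cells and plasma cells, measured 11.5, 6.99 and 7.83 CPM in the R/R lungs against 10.2, 12.6 and 12.4 CPM in the WT lungs. R/R replicates 2 and 3 were below all WT lungs, whereas R/R replicate 1 was within the WT range. The log2 fold change was -0.42 ± 0.18 (SE; unadjusted p = 0.0397, adjusted p = 0.321 by edgeR), and the exact two-sided permutation test of log2 CPM gave p = 0.2, where 3 lungs against 3 cannot go below 0.1. When single lungs were left out, the log2 fold change of Irf4 ranged from -0.67 to -0.28, the adjusted p from 0.0809 to 0.642. The summed level of 8 B cell markers was also lower in these R/R lungs, at 127 CPM or less against 170 CPM or more, and its part in the level of Irf4 was not tested. Cd209a (ENSMUSG00000031494.7, minus strand of chromosome 8, bases 3743397 to 3748984), the mouse gene for the lectin DC-SIGN, measured 8.38, 7.59 and 5.48 CPM in the R/R lungs against 9.66, 9.16 and 8.20 CPM in the WT lungs. R/R replicate 1 exceeded WT replicate 3, and the other R/R lungs were below all WT lungs. The log2 fold change was -0.33 ± 0.17 (SE; adjusted p = 0.412 by edgeR), with a fold interval of 0.616 to 1.03. Cd209a has near relatives in the genome, and read pairs that map to more than 1 place were left out of the counts.

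Siglech (ENSMUSG00000051504.18, plus strand of chromosome 7, bases 55768178 to 55778925), a sialic acid-binding lectin of pDCs that some tissue macrophages also express, measured 4.50, 3.53 and 4.42 CPM in the R/R lungs against 3.34, 4.14 and 2.81 CPM in the WT lungs. R/R replicates 1 and 3 lay above all WT lungs, and R/R replicate 2 did not. Its log2 fold change of 0.27 was the highest of the 10 genes (SE 0.21; adjusted p = 0.632, edgeR), with a fold interval of 0.877 to 1.66.

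Flt3 (ENSMUSG00000042817.15, minus strand of chromosome 5, bases 147330741 to 147400489) measured 6.16, 5.62 and 6.54 CPM in the R/R lungs against 4.01, 4.91 and 6.50 CPM in the WT lungs. The R/R lungs were close together and WT replicate 3 was at their level, so that the log2 fold change of 0.25 (SE 0.19; adjusted p = 0.634, edgeR, fold interval 0.886 to 1.59) was within the spread of WT lungs. Flt3l, the gene of its ligand, averaged 28.5 ± 7.20 CPM (SD, n = 3) in R/R against 32.1 ± 1.65 CPM in WT, with a log2 fold change of -0.17 (adjusted p = 0.658, edgeR). Zbtb46 (ENSMUSG00000027583.13, minus strand of chromosome 2, bases 181387762 to 181459426), a transcription factor of conventional DCs that endothelial cells also express, measured 55.7, 52.5 and 53.7 CPM in the R/R lungs against 65.2, 57.3 and 53.5 CPM in the WT lungs. WT replicate 1 was the highest lung for Zbtb46, as it was for Clec9a, Irf8 and the endothelial Pecam1, and WT replicate 3 lay among the R/R lungs (log2 fold change -0.12, SE 0.08; adjusted p = 0.542, edgeR).

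**Figure D2:**
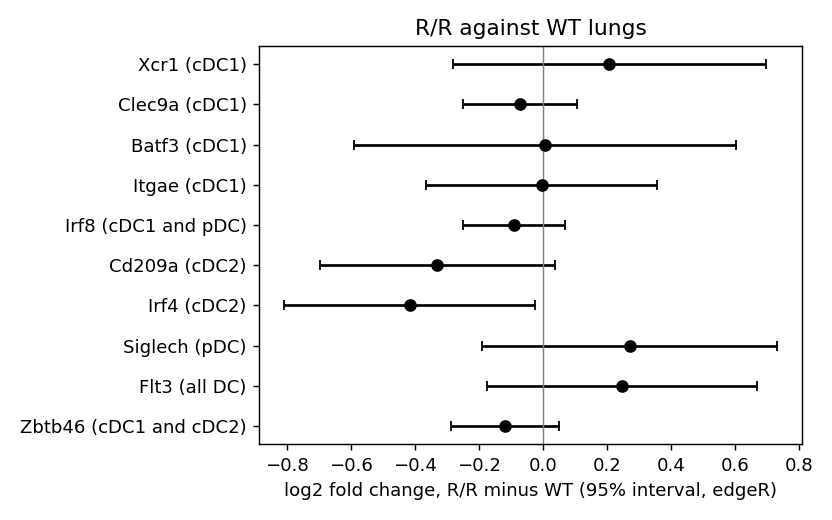
Log2 fold change (R/R minus WT) of each gene with its 95% interval from edgeR's quasi-likelihood fit on 3 lungs per genotype. The intervals of 9 genes include 0, and that of Irf4 ends at -0.02, before adjustment for the 17120 genes tested.

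The subsets were then compared as sums of RPKM, without a test, since the genes were chosen with results known. The cDC1 sum of Xcr1, Clec9a, Batf3 and Itgae was 18.8 ± 1.08 in R/R and 19.5 ± 1.23 in WT lungs (SD, n = 3 each), a ratio of 0.964. Clec9a made up most of this sum, and without it the sums were 3.41 ± 0.536 and 3.33 ± 0.334, a ratio of 1.02. The cDC2 sum of Cd209a and Irf4 was 7.65, 6.22 and 5.06 in R/R replicates and 8.18, 8.37 and 7.71 in WT replicates. R/R lungs were all below WT lungs in the cDC2 sum, although R/R replicate 1 and WT replicate 3 were close, and the ratio was 0.780. Cd209a made up most of this sum, and on their own Cd209a and Irf4 each overlapped between the genotypes. Among single tested genes, 9.50% had all R/R lungs below all WT lungs. The ratio of the cDC1 to the cDC2 sum was 2.61, 3.01 and 3.52 in R/R and 2.54, 2.32 and 2.38 in WT replicates, whereas without Clec9a this ratio overlapped between the genotypes. For pDC, with Siglech alone, the ratio of R/R to WT was 1.21, with overlap.

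**Figure D3:**
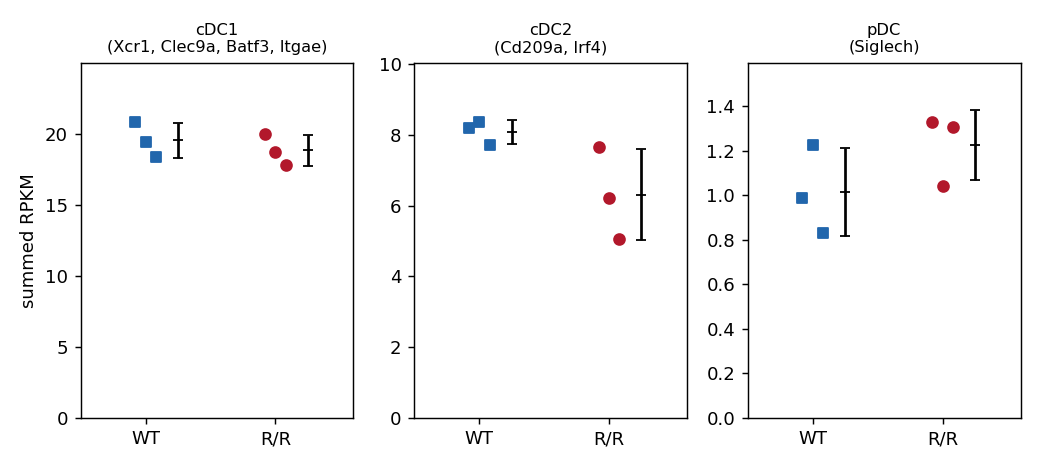
Summed RPKM of the genes assigned to 1 subset alone, in single lungs (squares WT, circles R/R), with the mean and SD of 3 lungs beside them and each axis starting at 0. The cDC1 and pDC sums overlap between the genotypes. In the cDC2 sum the 3 R/R lungs lie below the WT lungs, at 7.65 or less against 7.71 or more. Cd209a and Irf4 each overlap when taken alone.

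Other genes of DCs were read from the same fit in 7 lists of 82 genes, of which 76 were tested. In R/R lungs 4 of the 76 fell and 0 rose (edgeR, adjusted p of 0.05), where 1.10% of all tested genes fell and 0.648% rose. Clnk, Clec4a4, Klk1, Upb1, Il12b and Lta had too few counts. The genes that fell were Spib, Irf7, Ltb and Cd40, and the median log2 fold change of the 76 genes was -0.03. All 4 are also expressed outside DCs. Lists with fewer than 2 calls were filled to 2 named genes by the size of the change. Clec10a, Mgl2, Sirpa, Ccr7, Fscn1, Wdfy4, Tlr3, Itgax, the MHC class II genes other than H2-Oa and H2-Ob, and the pDC genes other than Spib and Irf7 were picked after their values were seen. Spib, Ltb and Cd40 are genes of B cells too, and Irf7 is induced by type I IFN in many cell types.

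In the pDC list, 8 of 12 tested genes had a negative log2 fold change, with a median of -0.32, and 2 fell. The R/R lungs were below all WT lungs in 7 of the 12, against 9.50% of all tested genes, and above them in 1, against 9.17%. The 7 were Spib, Irf7, Ly6d, Pacsin1, Runx2, Tlr9 and Bcl11a, of which Spib, Ly6d, Tlr9 and Bcl11a are known in B cells as well. The R/R lungs were likewise below all WT lungs in 7 of 8 B cell markers. Of the 8, 5 fell (edgeR), against 1.10% of all tested genes. Their sum was 127 CPM or less against 170 CPM or more, and the share of B cells in the pDC list was not tested. Spib (ENSMUSG00000008193.13), an ETS family factor of pDCs and B cells, measured 11.7, 10.4 and 9.66 CPM in the R/R lungs against 29.3, 18.5 and 19.5 CPM in the WT lungs. No R/R lung reached the lowest WT lung, and edgeR gave a log2 fold change of -1.08 ± 0.17 (SE; adjusted p = 0.0111). Irf7 (ENSMUSG00000025498.15), the factor that drives type I IFN genes in pDCs, measured 23.1, 27.4 and 28.3 CPM in the R/R lungs against 35.8, 39.4 and 37.9 CPM in the WT lungs, and edgeR gave a log2 fold change of -0.52 ± 0.09 (SE; adjusted p = 0.0172). Irf7 shares 45 of its 3776 exon bases with Phrf1 on the opposite strand. The difference in direction between Siglech and these 2 genes was not tested. Bst2, also in the pDC list, had a log2 fold change of -0.03 (adjusted p = 0.925, edgeR). The 4 genes of the list with positive log2 fold changes were Cox6a2 at 0.52, Cd300c and Tlr7 at 0.14 each and Ccr9 at 0.09. Their adjusted p were 0.197, 0.912, 0.647 and 0.928 in this order (edgeR).

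In the cDC2 list 1 of 7 tested genes fell, while 4 had a positive log2 fold change, and the median was 0.06, above 0 where Cd209a and Irf4 had negative values. Ltb (ENSMUSG00000024399.5), the lymphotoxin subunit of lymphocytes and DCs, averaged 12.2 ± 1.27 CPM (SD, n = 3) in R/R against 19.1 ± 2.76 CPM in WT, and edgeR gave a log2 fold change of -0.65 ± 0.13 (SE; adjusted p = 0.0327). Itgam, the CD11b integrin of cDC2, monocytes and neutrophils, averaged 6.64 ± 0.355 CPM (SD, n = 3) in R/R against 9.24 ± 0.308 CPM in WT (adjusted p = 0.106, edgeR), and Clec10a and Mgl2, lectins of cDC2 and macrophages, had log2 fold changes of 0.36 and 0.09 (adjusted p = 0.511 and 0.777, edgeR). Sirpa, which marks cDC2 and macrophages, had one of 0.13 (adjusted p = 0.393, edgeR). In the list of mature and migratory DCs 1 of 13 tested genes fell. Of the 13, 8 had a negative and 5 a positive log2 fold change, with a median of -0.09. The R/R lungs were below all WT lungs in 4 of the 13, against 9.50% of all tested genes, and above them in 1, against 9.17%. Cd40 (ENSMUSG00000017652.16), the costimulatory receptor of DCs and B cells, averaged 20.6 ± 0.475 CPM (SD, n = 3) in R/R against 26.8 ± 1.72 CPM in WT, and edgeR gave a log2 fold change of -0.38 ± 0.08 (SE; adjusted p = 0.0444). Cd40 was not called by limma-voom or with the replicate number as a block, where its adjusted p was at most 0.0528, and it was called under the other 7 of 9 alternatives of tool, scaling, filter and design. Ccl22, a chemokine of mature DCs, was at 8.81 ± 0.996 CPM in R/R and 6.94 ± 0.906 CPM in WT (SD, n = 3 each; adjusted p = 0.336, edgeR). Ccr7 and Fscn1, in the same list, had log2 fold changes of -0.29 and -0.25 (adjusted p = 0.238 and 0.263, edgeR).

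These 4 calls changed when single lungs were left out. So did the calls over all genes, which went from 300 to between 65 and 621, with 76 without R/R replicate 2. With each lung left out in turn, Spib and Irf7 were called in 4 of 6 cases, Ltb in 2 and Cd40 in 1. The log2 fold changes in these fits lay between -1.20 and -0.85 in Spib and -0.58 and -0.44 in Irf7. They lay between -0.77 and -0.56 in Ltb and -0.43 and -0.34 in Cd40. Without R/R replicate 2 none of the wider DC genes was called, and without R/R replicate 3 the number was 1. It was 2 when R/R replicate 1 was left out, also 2 for WT replicates 1 and 2, and 7 for WT replicate 3.

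No gene was called by the quasi-likelihood test in the lists of other cDC1 genes, growth factors and receptors, transcription factors and MHC class II genes. In the cDC1 list, Rab7b was at 17.1 ± 2.59 CPM in R/R and 11.9 ± 1.53 CPM in WT lungs, and Naaa at 79.7 ± 0.981 and 66.8 ± 8.49 CPM (SD, n = 3 each), with adjusted p of 0.0852 and 0.169 (edgeR). Rab7b was called in 3 of 9 alternatives, by DESeq2, by edgeR's exact test and without a filter on low counts. Other cDC1 genes, such as Wdfy4, which is needed for cross-presentation, and the RNA sensor Tlr3, had log2 fold changes of 0.04 and 0.01. Among growth factors and receptors, Csf1, the macrophage growth factor, had a log2 fold change of 0.22 (adjusted p = 0.110, edgeR). Among transcription factors, Nfil3 and Batf had log2 fold changes of -0.46 and -0.41 (adjusted p = 0.242 and 0.405, edgeR). In the MHC class II list, H2-Oa and H2-Ob, which encode the modulator of peptide loading that B cells and DCs express, had log2 fold changes of -0.50 and -0.42 (adjusted p = 0.340 and 0.0683, edgeR), while those of the antigen-presenting chains H2-Aa, H2-Ab1 and H2-Eb1 lay between 0.08 and 0.15. H2-DMa, which helps load peptides, had a log2 fold change of 0.28 (adjusted p = 0.0609, edgeR). Itgax, which encodes the CD11c of DCs and alveolar macrophages and stood in the same list, had the highest log2 fold change of that list at 0.37 (adjusted p = 0.0770, edgeR). H2-Ob and Itgax were called in 4 of 9 alternatives, by DESeq2, by the exact test, without the filter and with the replicate block, and H2-DMa in 2, by the exact test and without the filter.

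**Figure D4:**
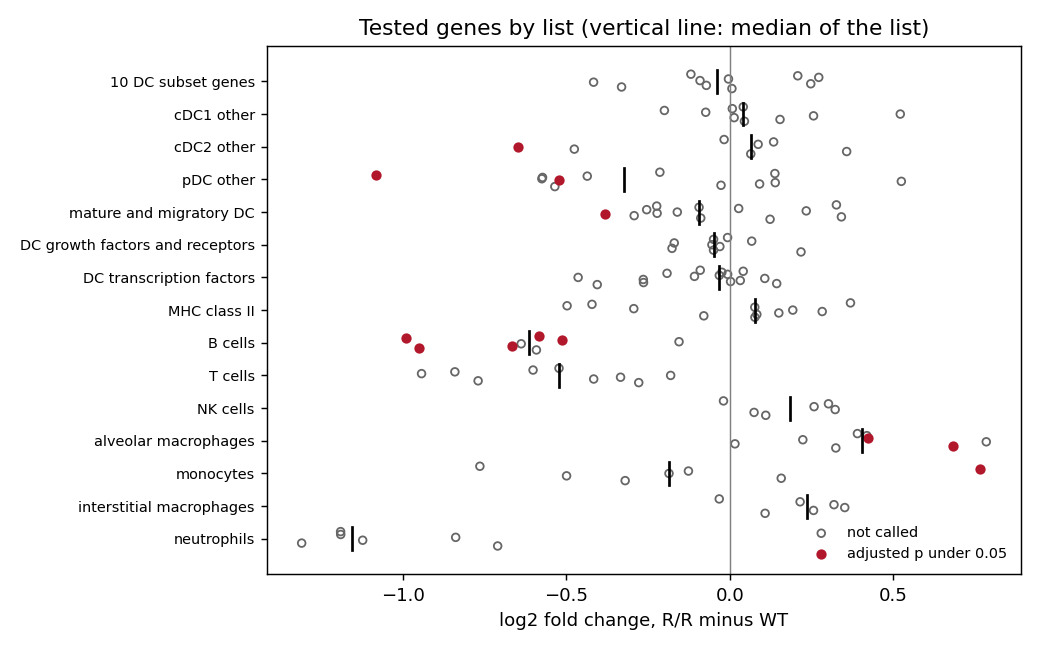
Log2 fold change (R/R minus WT) of each tested gene, by list, with filled points for genes at an adjusted p under 0.05 (edgeR) and a vertical line at the median of the list. The 10 DC subset genes hold no filled point and have a median of -0.04, the B cell markers have a median of -0.61 and the alveolar macrophage markers one of 0.40.

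Markers of other lung leukocytes were measured in the same lungs, because several DC genes are shared with them. Of 8 B cell markers, 5 fell in R/R lungs (edgeR), against 1.10% of all tested genes. The summed level of the 8 was between 95.6 and 127 CPM in R/R and between 170 and 214 CPM in WT lungs. The 9 T cell markers had log2 fold changes between -0.94 and -0.18 and 0 were called. In 6 of the 9 the R/R lungs were below all WT lungs, against 9.50% of all tested genes. The summed level of the 9 was between 36.8 and 44.3 CPM in R/R and between 51.6 and 68.7 CPM in WT lungs. Of 8 alveolar macrophage markers, 2 rose, Chil3 and Mrc1, against 0.648% of all tested genes. The summed level of these 8 markers was between 791 and 902 CPM in R/R and between 493 and 689 CPM in WT lungs. None of 6 NK cell markers and 6 interstitial macrophage markers was called, with median log2 fold changes of 0.18 and 0.24. Of 7 monocyte markers 1 rose, Nr4a1, against 0.648% of all tested genes, and the median was -0.19. Log2 fold changes were negative in 5 of the 7 and positive in 2. At an unadjusted p of 0.05 (edgeR) 3 were lower and 1 was higher, where 14.2% of all tested genes passed in either direction. The R/R lungs were below all WT lungs in 2 of the 7, against 9.50% of all tested genes, and above them in 1, against 9.17%. The 6 neutrophil markers had a median of -1.16 and 0 were called. All 6 passed an unadjusted p of 0.05 (edgeR), against 14.2% of all tested genes. The R/R lungs were below all WT lungs in 2 of these 6 markers, against 9.50% of all tested genes. Their summed level overlapped, between 65.9 and 95.7 CPM in R/R and between 69.0 and 195 CPM in WT lungs. WT replicate 2, at 69.0 CPM, lay among the R/R lungs. The share of B cells, T cells and macrophages in the levels of Irf4, Irf8, Spib, Ltb, Cd40 and the other shared genes was not tested. Thymocyte genes were near their limit of detection, with Rag2 at 0 counts in all 6 lungs and a summed level of 4 genes of 0.972 CPM or less.

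For Flt3, Xcr1 and Siglech, the genes with the most similar pattern were sought among 14379 tested genes whose log2 CPM averaged at least 1, by Pearson's r of log2 CPM over the 6 lungs. They were Nme1, Stmnd1 and Cebpa for Flt3, Arl2, Plcb2 and Man2b1 for Xcr1, and Dnajc18, Mpp1 and Grn for Siglech, with r between 0.977 and 0.997. These are the highest values among many genes over few lungs, and lungs of both genotypes are pooled in them, so they are given as a description.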

How the data were processed

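Lungs of 3 R/R and 3 WT mice were profiled by paired-end RNA-seq, with libraries from a SMARTER kit. The authors aligned the reads with HISAT2 2.1.0 to mm10 (GRCm38) and deposited raw counts per gene, which per the file header came from featureCounts 2.0.1 with GENCODE M25, no strand setting, and without read pairs that mapped to several places or overlapped several genes. Symbols were found for 55141 of 56262 identifiers from GENCODE M21 names.

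Counts were analysed in R 4.3.3 with edgeR 4.0.16 (filterByExpr, minimum count 10, TMM, quasi-likelihood test, no block, Benjamini-Hochberg adjustment over 17120 genes), which was tested on simulated data. Standard errors (SE) were derived from the log2 fold change and its F statistic. RPKM used the deposited exon length. The exact test of edgeR, DESeq2 1.42.0, voom in limma 3.58.1, other scalings and filters, a replicate block and leaving out each lung were tried. Libraries held 16501092 to 18141067 counts, so that 1 count was worth 0.0551 to 0.0606 CPM before the TMM factors were applied. The genes and lists were chosen with earlier results of these data known. All 10 subset genes were named. In each other DC list the called genes were named, and where fewer than 2 were called, those with the largest change at a mean log2 CPM of at least 1 until 2 were named.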

Additional observations from a re-analysis of the deposited data

How the results depend on the processing

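The number of DC subset genes called was 0 of 10 under all 9 alternatives of tool, scaling, filter and design and with each of the 6 lungs left out. The calls over all genes were 300 by the quasi-likelihood test, 541 by DESeq2, 630 by edgeR's exact test and 1109 without a filter on low counts, and between 65 and 621 with a lung left out. The wider DC genes called were 4, 7, 9 and 13 in the same order, and between 0 and 7 with a lung left out. Log2 fold changes near 0 turned sign, that of Batf3 to -0.0026 with the replicate block and within -0.20 to 0.16 with a lung left out, and that of Itgae to 0.00048 without the filter and within -0.10 to 0.12 with a lung left out. The other 8 genes kept their sign under all of these alternatives, but their size depended on single lungs. With a lung left out, the log2 fold change ranged from 0.10 to 0.45 in Flt3, 0.14 to 0.43 in Siglech, 0.13 to 0.33 in Xcr1, -0.46 to -0.17 in Cd209a, -0.67 to -0.28 in Irf4, -0.18 to -0.04 in Zbtb46, -0.14 to -0.03 in Irf8 and -0.14 to -0.0012 in Clec9a.

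The replicate numbers gave no sign of pairing, as the correlations of deviations between lungs of the same number were -0.0138, -0.0028 and -0.0149. The sample labels do not give the litters, so pairing by litter was not tested. With the number as a replicate block, 446 genes were called over all genes, 5 in the wider DC lists (Spib, Irf7, Ltb, Itgax and H2-Ob, without Cd40) and 0 of the DC subset genes. Counts per lung were as low as 27 among the 10 genes. Batf3 had the widest 95% interval of its fold, unadjusted, at 0.664 to 1.52, and how far depth or the spread between lungs set that width was not tested.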
